A study of Mus musculus with 3 samples.

Results

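The genes described here are the Ms4a membrane protein family, 10 mouse symbols matched by name: Ms4a1, Ms4a2, Ms4a4a, Ms4a4b, Ms4a4c, Ms4a4d, Ms4a6b, Ms4a6c, Ms4a6d and Ms4a7. Of these, 9 were matched in the deposited tables of 24411 genes, and Ms4a4a was not analysed here. The data were RNA sequencing libraries from C57BL/6J mice, labelled as brain and described in the series' design as primary microglia, the brain's own macrophages. All 3 libraries formed 1 group. Its mice had both copies of Mir137, the gene of the microRNA miR-137, flanked by loxP sites and carried a tamoxifen-inducible Cre recombinase expressed from Tmem119, so the deletion was directed to cells that express this microglial gene. Tamoxifen was injected on 7 consecutive days at 7 to 8 weeks of age, and the labels gave the age of the mice as 6 to 8 weeks. Treatment with a Pu.1 inhibitor was common to all 3 libraries, and the sources used here name neither the compound nor its dose. Microglia with intact Mir137 or without the inhibitor were not analysed here, so the values below are levels in samples with both alterations, and the effect of neither was estimated. The design text gives 4 mice for the isolation of microglia without tying them to libraries, so replicates may share animals, and the spread between them may be technical.

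MS4A proteins cross the membrane several times and sit at the cell surface or in internal membranes, where they associate with receptors and modulate their signalling. Ms4a1 encodes CD20 of B cells, and Ms4a2 encodes the beta chain of the high-affinity IgE receptor of mast cells and basophils. Ms4a4b is best known from T cells, the Ms4a6 genes and Ms4a4c from monocytes and macrophages, and Ms4a7 from macrophages, where it separates those of the brain borders from microglia. In humans the MS4A gene cluster is a risk locus for Alzheimer's disease and influences the soluble form of TREM2, a lipid receptor of microglia.

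The genes lie side by side, as products of repeated duplication. In the GENCODE M21 annotation of GRCm38, 19 genes named Ms4a occupy 679 kb of chromosome 19, from 10962293 to 11640851, and the 10 family members given above lie within 374 kb of it, from 11249675 to 11623719. Of the 10, 6 are on the plus strand and 4 on the minus strand. All are protein-coding, and the longest annotated coding regions encode 216 amino acids (Ms4a6c) to 290 (Ms4a1).

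How alike the copies are bears on how reads can be assigned to them. In global alignments of the coding regions, the 45 pairs of the 10 genes had a median of 60.1% identical aligned bases. The pair most alike was Ms4a4b and Ms4a4c at 91.7%, followed by Ms4a4c and Ms4a4d at 86.1% and by Ms4a6b and Ms4a6c at 85.4%. Ms4a6d matched Ms4a6b at 81.2% and Ms4a6c at 79.0%, whereas Ms4a7 reached at most 64.0%, with Ms4a6b. The following 90 coding bases, the most alike ungapped stretch of the Ms4a6 genes (coding positions 90 to 179 in each), show this closeness, and capitals mark the 7 positions at which the copies are not all the same.

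Ms4a6b: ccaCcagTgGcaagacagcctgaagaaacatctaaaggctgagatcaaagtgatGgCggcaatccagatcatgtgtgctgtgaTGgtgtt
Ms4a6c: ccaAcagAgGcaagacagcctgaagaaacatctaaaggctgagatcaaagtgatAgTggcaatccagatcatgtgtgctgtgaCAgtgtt
Ms4a6d: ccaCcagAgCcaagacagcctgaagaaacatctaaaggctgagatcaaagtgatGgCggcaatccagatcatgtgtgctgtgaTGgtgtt

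The corresponding stretch of the Ms4a4 genes, coding positions 466 to 555 in Ms4a4b and Ms4a4c and 463 to 552 in Ms4a4d, also differed at 7 positions.

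Ms4a4b: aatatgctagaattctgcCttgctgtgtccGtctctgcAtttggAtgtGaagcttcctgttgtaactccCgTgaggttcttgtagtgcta
Ms4a4c: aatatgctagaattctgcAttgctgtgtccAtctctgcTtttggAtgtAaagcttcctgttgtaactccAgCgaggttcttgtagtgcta
Ms4a4d: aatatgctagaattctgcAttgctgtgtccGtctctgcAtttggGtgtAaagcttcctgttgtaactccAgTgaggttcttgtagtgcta

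**Figure D1:**
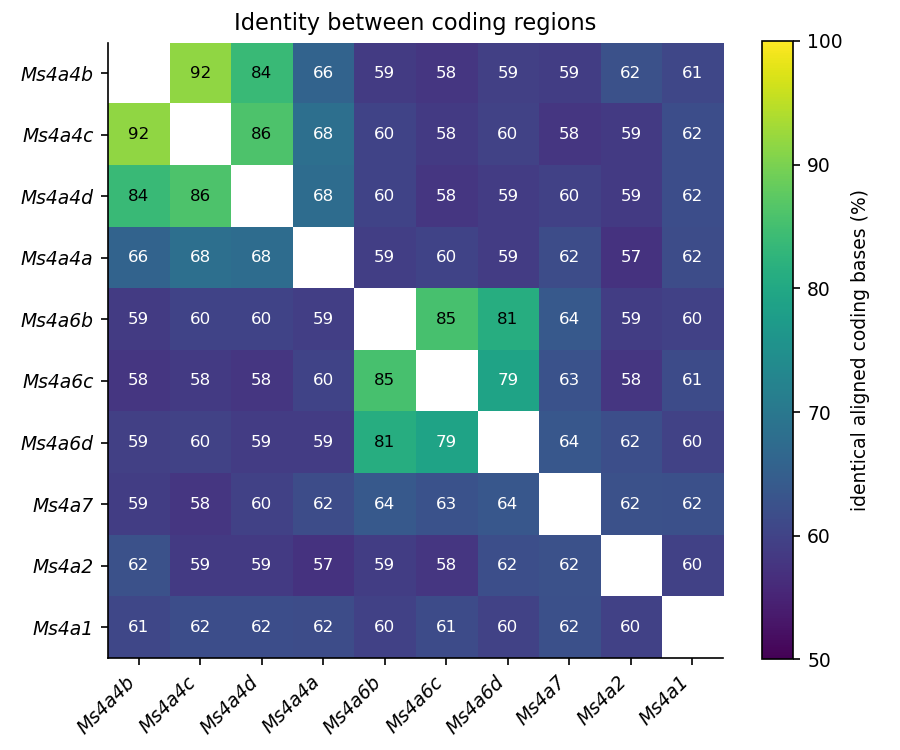
Percentage of identical aligned bases between the longest annotated coding regions of each pair of Ms4a genes, on a colour scale from 50 to 100%. The Ms4a4b, Ms4a4c and Ms4a4d copies and the Ms4a6b, Ms4a6c and Ms4a6d copies form the blocks of high identity.

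Stretches shared exactly between genes were counted as 75-base windows of an annotated transcript that also occurred in a transcript of another gene. In the transcript with the longest coding region, these were 3.94% of windows in Ms4a4c, 3.23% in Ms4a6c, 2.20% in Ms4a4b, 1.11% in Ms4a6b and 0.52% in Ms4a6d. The shared windows of Ms4a6c were not all with its copies. They numbered 57, beside 29 in Ms4a6b, and occurred in Ms4a6b or in Prdm11, a gene outside the family. With 100-base windows, Ms4a6c shared 0.57%, with Prdm11 alone. The share depended on the transcript, reaching 7.5% in a shorter one of Ms4a4c (Ms4a4c-202) and 6.35% in one of Ms4a4b with a retained intron (Ms4a4b-206). Ms4a2 had such windows in 1 transcript alone (Ms4a2-204, 2391 nt), where 1.64% were shared with Ms4a4b. No annotated transcript of Ms4a1, Ms4a4d or Ms4a7 held one. Which transcripts the counting used is not known, and the effective length in the deposited tables was 977 nt for Ms4a4b beside 4750 nt for its transcript with the longest coding region, so the shares over the counted length may differ. All 27 estimated counts of the 9 genes were whole (within 0.001), whereas 4.07% of the values over all genes were not. The sources used here give no read length and no annotation version for the counting, so the values of the Ms4a4 and Ms4a6 copies carry an uncertainty of assignment that is not in their SD. Strand was not stated either, so reads of Ms4a6c, Ms4a6b, Ms4a4c and Ms4a1 could not be told apart from those of the opposite-strand genes BE692007, Gm19261, Gm5692 and 4930526L06Rik where these overlap them.

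The deposited estimated counts summed to 15710750 to 17180404 per library. For a gene with 0 counts the data allow a level of up to 0.175 to 0.191 CPM (counts scaled to a common library total), the limit that 3 counts set, and this limit and all intervals below cover counting error only. Markers of the named cell type were read first, and all 12 homeostatic microglial genes had an FPKM (fragments per kilobase of transcript, scaled to library size) of 1 or more in every library. The lowest was the transcription factor gene Sall1 at 134 ± 5.88 FPKM, and the median was 9.43 ± 0.05 on the scale log2(FPKM + 1) (SD, n = 3). This bar does not tell cell types apart, because all 10 neutrophil, 9 monocyte and 11 border-associated macrophage genes also passed it. Homeostatic microglial genes held 3.37 ± 0.05% of all counts and neutrophil genes 0.30 ± 0.01% (SD, n = 3). Their summed FPKM were 15183 ± 318 and 14215 ± 842 (SD, n = 3). Mir137 had no count in any library, but neither had any of the 1174 tabulated microRNA loci, so the deletion could not be checked. Spi1, which encodes Pu.1, was at 187 ± 4.65 FPKM (SD, n = 3).

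Of the 9 genes, 6 were detected, meaning that each library reached 1 FPKM, beside 47.8% of all genes. They were Ms4a6d, Ms4a6c, Ms4a6b, Ms4a4c, Ms4a7 and Ms4a4b. The median of the family was 3.07 ± 0.16 on the scale log2(FPKM + 1) (SD, n = 3), beside 0.95 ± 0.02 over all genes. That median hides a steep gradient, because the 3 Ms4a6 genes alone took 92.8 ± 0.47% of the family's counts (SD, n = 3). In all libraries together the 9 genes received 16589 estimated counts.

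**Figure D2:**
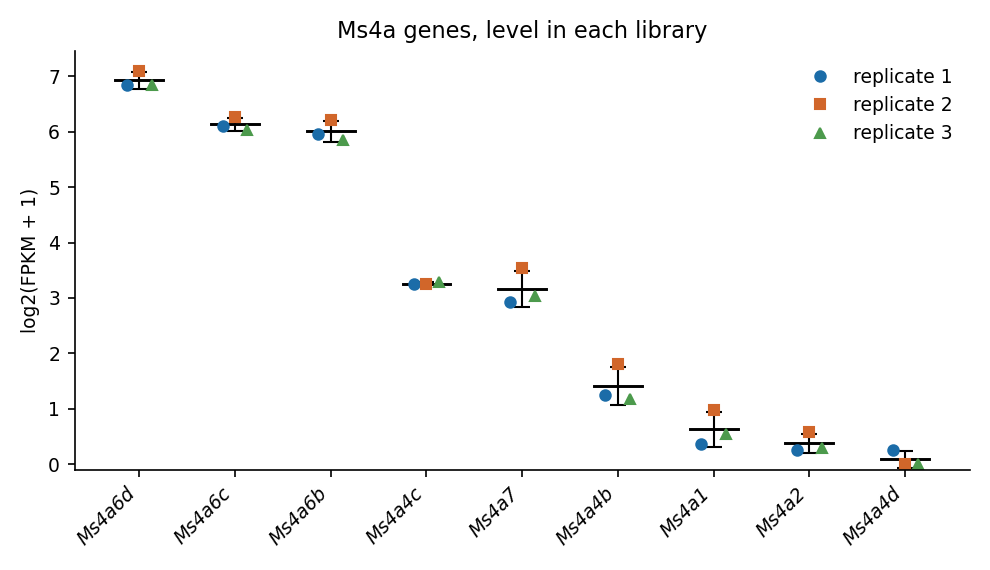
Level of the 9 Ms4a genes in each library as log2(FPKM + 1), ordered by mean FPKM, with symbols for replicates 1 to 3, a horizontal bar for the mean and whiskers for the SD. The 3 Ms4a6 genes lie near 6 to 7, Ms4a4c and Ms4a7 near 3, and the others below 2.

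The Ms4a6 genes, which are typical of monocytes and macrophages, were the abundant members. Ms4a6d (chromosome 19, 11586604 to 11604849, minus strand) was at 114, 137 and 113 FPKM in replicates 1, 2 and 3, from 2127, 2334 and 2021 estimated counts, a mean of 121 ± 13.3 FPKM (SD, n = 3). It ranked 613 among all genes. Its value in replicate 2 lay above those of the other libraries, and the 95% exact Poisson interval in replicate 2 (131 to 142 FPKM) did not reach those of replicates 1 (109 to 118) and 3 (108 to 118).

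Ms4a6c (11469366 to 11482192, plus strand) was at 67.9, 75.8 and 64.6 FPKM, a mean of 69.5 ± 5.76 (SD, n = 3). Ms4a6b (11516512 to 11531256, plus strand) was at 61.4, 72.9 and 56.6 FPKM, a mean of 63.6 ± 8.39 (SD, n = 3). Both were highest in replicate 2 and lowest in replicate 3, and their ranges overlapped. Within a library the ratio of Ms4a6c to Ms4a6b was 1.10 ± 0.05 (SD, n = 3), with Ms4a6c higher in 3 of 3 libraries. Ms4a6d exceeded Ms4a6c by 1.74 ± 0.07 times and Ms4a6b by 1.91 ± 0.08 times in FPKM (SD, n = 3), and its range overlapped with neither.

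Ms4a6b and Ms4a6c also resembled each other upstream of their start sites, which is shown because these genes had nearly the same level. RefSeq promoters of GRCm38.p6 were found for 8 of the 10 genes, with 9 start sites in all, and were read over the 250 bases before the start. None was found for Ms4a1 or for Ms4a6d, the most abundant member, so the promoters of these genes were not searched. Of the 36 pairs of promoters, that of Ms4a6b and Ms4a6c had the longest identical run, 48 bases, and that of Ms4a4b and Ms4a4c the next, 20 bases. No other pair had a run of more than 9 bases. Outside annotated exons, the aligned parts of the Ms4a6b promoter (chr19:11518311-11518452, plus strand) and the Ms4a6c promoter (chr19:11469193-11469330, plus strand) were identical at 112 of 136 aligned bases. Capitals mark the bases that differ or have no counterpart.

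Ms4a6b: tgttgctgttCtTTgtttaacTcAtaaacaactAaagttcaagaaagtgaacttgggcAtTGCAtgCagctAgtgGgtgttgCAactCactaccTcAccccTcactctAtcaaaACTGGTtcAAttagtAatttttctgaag
Ms4a6c: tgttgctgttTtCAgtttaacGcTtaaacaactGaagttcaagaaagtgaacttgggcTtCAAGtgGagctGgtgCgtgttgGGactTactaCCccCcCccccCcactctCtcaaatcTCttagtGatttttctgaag

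Pu.1 belongs to the ETS family, whose members bind sites with a GGAA core, so such letters were sought on both strands. The motif GAGGAA was found in neither the Ms4a6b nor the Ms4a6c promoter, and 23.3% of all 32851 promoters of the same length held it. The longer GAGGAAGT, held by 2.44% of all promoters, and GGAANTGAA, a form of the composite site of Pu.1 and an interferon regulatory factor held by 1.94%, were found in none of the 9. A further ETS motif, AGGAAGT, which overlaps GAGGAAGT and was chosen after the sequences had been seen, lay in the long run that the Ms4a6b and Ms4a6c promoters share and was held by 7.69% of all promoters. It began 86 bases before the RefSeq start of Ms4a6b (chr19:11518461-11518487 for the stretch shown) and 17 bases before that of Ms4a6c (chr19:11469339-11469365). The Ms4a6b promoter held a further match on the minus strand, 43 to 37 bases before the start and outside the stretch shown. In Ms4a6b the stretch also lies in exon 2 of an annotated transcript that starts upstream (Ms4a6b-205). Capitals mark the motif.

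Ms4a6b: actttctgatatAGGAAGTacaggcac
Ms4a6c: actttctgatatAGGAAGTacaggcac

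A match is a description of letters, not a bound site, and whether Pu.1 occupied any of them was not tested.

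Well below the Ms4a6 genes stood Ms4a4c and Ms4a7, which had similar means and unlike spreads. Ms4a6b exceeded Ms4a4c by 7.44 ± 1.07 times in FPKM (SD, n = 3). Ms4a4c (11404770 to 11427246, plus strand) was at 8.47, 8.49 and 8.73 FPKM, from 210, 192 and 206 counts, a mean of 8.56 ± 0.14 (SD, n = 3). Its libraries differed by no more than 1.03 times. Ms4a7 (11321039 to 11336146, minus strand) was at 6.62, 10.62 and 7.18 FPKM, from 120, 175 and 124 counts, a mean of 8.14 ± 2.17 (SD, n = 3). The highest library, replicate 2, was 1.60 times the lowest. The ranges of Ms4a4c and Ms4a7 overlapped, with Ms4a4c higher in replicates 1 and 3 and lower in replicate 2.

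Because Ms4a7 is used to tell macrophages of the brain borders from microglia, its level was set beside genes of both. All 11 genes of border-associated macrophages were detected, beside 47.8% of all genes. They ran from Siglec1, a sialic acid-binding receptor, at 5.97 ± 0.61 FPKM to Stab1, a scavenger receptor, at 82.3 ± 2.95 FPKM (SD, n = 3). The mannose receptor gene Mrc1 was at 64.9, 60.9 and 58.1 FPKM, and it exceeded Ms4a7 by 9.80, 5.74 and 8.09 times in replicates 1, 2 and 3. The purinergic receptor gene P2ry12 of microglia was at 1604, 1617 and 1604 FPKM, and the ratio of Ms4a7 to it was 0.0051 ± 0.0013 (SD, n = 3). The FPKM of the 11 border genes summed to 401, 417 and 370 in replicates 1, 2 and 3. Of the 11, 5 were highest in replicate 2, beside 35.7% of all genes with a value. Their part in the level or the spread of Ms4a7 was not tested, and in bulk RNA fewer cells of a type cannot be told apart from less RNA per cell.

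Monocyte genes were present as well. All 9 were detected, beside 47.8% of all genes. They ran from F10, a coagulation factor gene, at 2.38 ± 0.36 FPKM to the chitinase-like gene Chil3 at 335 ± 13.3 FPKM (SD, n = 3). The sums were 712, 804 and 704 FPKM, and 8 of the 9 were highest in replicate 2, beside 35.7% of all genes with a value. The monocyte receptor gene Ccr2 was at 13.3, 13.6 and 13.5 FPKM, and Ms4a6c exceeded it by 5.16 ± 0.40 times (SD, n = 3). Their part in the Ms4a6 levels was not tested.

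Ms4a4b, the member best known from T cells (11443553 to 11467055, plus strand), was at 1.37, 2.48 and 1.25 FPKM, from 23, 38 and 20 counts, a mean of 1.70 ± 0.68 (SD, n = 3). Replicate 2 was again highest. Ms4a4c exceeded it by 6.18, 3.42 and 6.98 times, although the coding regions of this pair are the most alike in the family. Of 11 T and NK cell genes 2 were detected, beside 47.8% of all genes. The highest of the list was the granule gene Nkg7 at 3.89 ± 0.89 FPKM and the lowest Cd8a at 0.07 ± 0.09 FPKM (SD, n = 3). Cd3e, a chain of the T cell receptor complex, was at 0.50, 0.22 and 0.05 FPKM. The list summed to 12.3, 11.5 and 8.18 FPKM. In replicate 2, 4 of the 11 genes were highest, beside 35.7% of all genes with a value. Their part in the values of Ms4a4b was not tested.

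The promoters of Ms4a4b (chr19:11443422-11443552, plus strand) and Ms4a4c (chr19:11407528-11407659, plus strand) are shown because they share a GAGGAA match while the levels of the genes differ. The match began 64 bases before the RefSeq start of Ms4a4b and 61 bases before that of Ms4a4c. Only these 2 of the 9 member promoters searched held one, beside 23.3% of all promoters. Over the parts outside annotated exons, 116 of 131 aligned bases were identical, and capitals mark those that were not.

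Ms4a4b: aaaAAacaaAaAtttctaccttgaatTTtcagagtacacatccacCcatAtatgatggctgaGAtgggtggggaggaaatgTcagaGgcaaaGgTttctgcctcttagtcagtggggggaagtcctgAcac
Ms4a4c: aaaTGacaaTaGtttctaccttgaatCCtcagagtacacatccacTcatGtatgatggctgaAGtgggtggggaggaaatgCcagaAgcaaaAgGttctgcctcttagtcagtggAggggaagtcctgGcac

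The AP-1 motif TGANTCA, held by 6.75% of all promoters, was found once, before the start of a shorter transcript of Ms4a7.

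Ms4a1, Ms4a2 and Ms4a4d were under 1 FPKM in every library. Ms4a1 (11249675 to 11266241, minus strand) was at 0.29, 0.97 and 0.45 FPKM, from 9, 27 and 13 counts. The counting interval of replicate 2 (0.64 to 1.41 FPKM) did not overlap that of replicate 1 (0.13 to 0.55) and overlapped that of replicate 3 (0.24 to 0.77). Among B cell genes, Cd79a, a signalling chain of the antigen receptor, was at 0.28, 0.24 and 1.11 FPKM. Cd79b, its partner chain, was at 12.9, 18.1 and 18.1 FPKM. In total 4 of 10 B cell genes were detected (Bank1, Cd79b, Ebf1 and Cd22), beside 47.8% of all genes. The highest of the list was the adaptor gene Bank1 at 20.7 ± 1.32 and the lowest the complement receptor gene Cr2 at 0.04 ± 0.05 FPKM (SD, n = 3). The list summed to 44.3, 49.3 and 48.6 FPKM. In replicate 2, 3 of the 10 genes were highest, beside 35.7% of all genes with a value. Their part in the values of Ms4a1 was not tested.

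Ms4a2 (11615523 to 11623719, minus strand) was at 0.19, 0.49 and 0.23 FPKM, from 7, 19 and 8 counts. Its partners in the IgE receptor stood far apart. Fcer1a, the chain that binds IgE, was at 0.16, 0.43 and 0.08 FPKM, and Fcer1g, the signalling chain that other Fc receptors of macrophages also use, was at 626, 680 and 590 FPKM. Of the 10 mast cell and basophil genes 5 were detected, beside 47.8% of all genes. In replicate 2, 6 were highest, beside 35.7% of all genes with a value. Without Fcer1g, the highest of them, the other genes summed to 44.0, 46.4 and 39.8 FPKM. Most of this sum came from Hdc at 20.5 ± 1.08 and Gata2 at 15.3 ± 0.55 FPKM (SD, n = 3). Mcpt8 at 4.49, 6.19 and 2.63 FPKM and Kit at 1.10 ± 0.06 FPKM (SD, n = 3) were also detected. Cpa3, Mcpt4, Tpsb2 and Cma1 had means of only 0.46, 0.30, 0.49 and 0.59 FPKM, and Fcer1a was the lowest. Their part in the values of Ms4a2 was not tested.

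Ms4a4d (11536801 to 11558467, plus strand) had 4 counts in replicate 1 (0.20 FPKM) and none in replicates 2 and 3, where 0 counts allow up to 0.164 and 0.158 FPKM. It was at or near the limit of detection, although it lies between Ms4a6b, whose end is 5544 bases away, and Ms4a6d, which is 28136 bases away. Ms4a2, also under 1 FPKM, is separated from Ms4a6d by 10673 bases.

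**Figure D3:**
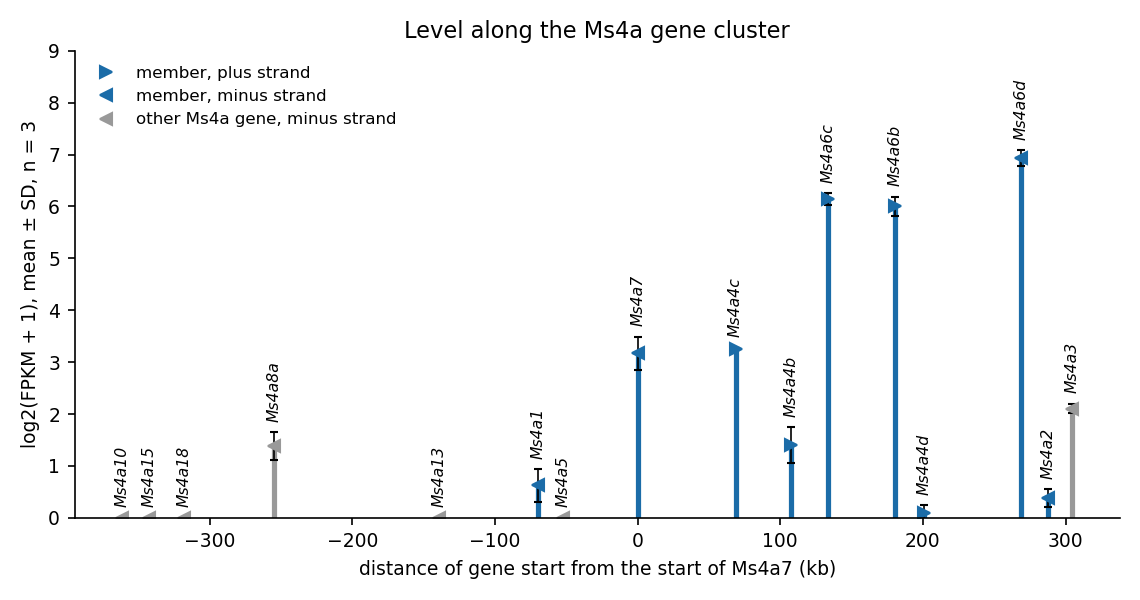
Mean log2(FPKM + 1) with SD (n = 3) of the Ms4a genes in the tables against the distance of their start from that of Ms4a7 in kb, with arrowheads for the strand and grey for Ms4a genes outside the 9 described. Ms4a4d at 0.07 FPKM lies between Ms4a6b at 63.6 and Ms4a6d at 121 FPKM, and the genes to the left of Ms4a7 are all below 2 on the log2 scale.

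The other Ms4a genes of the cluster were mostly without counts. Of 7 in the tables, 5 had none (Ms4a5, Ms4a10, Ms4a13, Ms4a15 and Ms4a18), and 1700025F22Rik, which RefSeq names Ms4a19, had none either. Ms4a3, a gene of granulocyte and monocyte precursors (11629496 to 11640851), was at 3.59, 3.33 and 3.02 FPKM, a mean of 3.31 ± 0.29 (SD, n = 3). Neutrophil genes and those of their precursors were all detected in the same libraries (10 of 10), beside 47.8% of all genes. They ran from myeloperoxidase (Mpo) at 11.7 ± 1.47 to the calcium-binding protein gene S100a8 at 8800.0 ± 567 FPKM (SD, n = 3), with sums of 13715, 15187 and 13743 FPKM. Their part in the level of Ms4a3 was not tested. Ms4a8a (11067471 to 11081102) was at 1.45, 1.27 and 2.21 FPKM. The relatives outside the cluster were higher. Tmem176b and Tmem176a, neighbouring genes on chromosome 6 that encode proteins of related structure, were at 317 ± 20.0 and 120 ± 9.16 FPKM (SD, n = 3), and Tmem176b exceeded Ms4a6d by 2.63 ± 0.15 times.

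Genes of TREM2, the receptor with which the human cluster is linked, were abundant. All 6 genes of the receptor, its signalling and its shedding were detected, beside 47.8% of all genes. Their median was 6.46 ± 0.03 on the scale log2(FPKM + 1) (SD, n = 3). Trem2 was at 659, 760 and 673 FPKM and exceeded Ms4a6d by 5.77 ± 0.19 times (SD, n = 3). Tyrobp, its adaptor, was the highest of the list at 962 ± 87.0, and the kinase gene Syk the lowest at 47.8 ± 1.45 FPKM (SD, n = 3). Trem2 and Tyrobp were also highest in replicate 2.

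**Figure D4:**
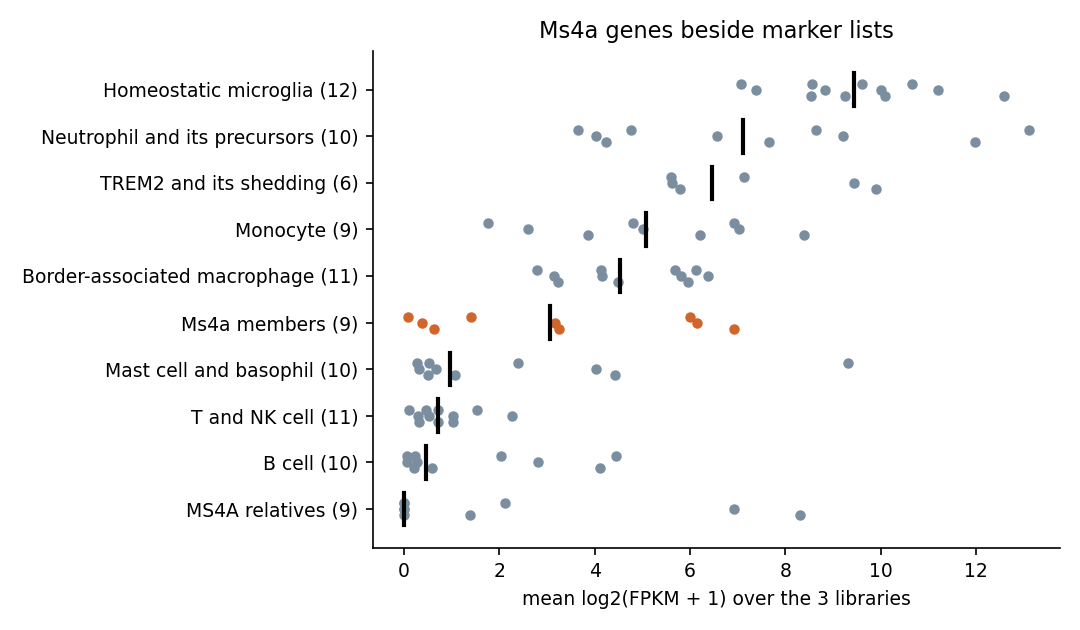
Mean log2(FPKM + 1) over the 3 libraries of each gene (points) in the Ms4a family and in marker lists, with a vertical bar at the mean over libraries of each list's median and the number of genes in parentheses. The Ms4a genes spread from near 0 to near 7, with a median of 3.07, between the border-associated macrophage list at 4.52 and the mast cell list at 0.97.

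The order of the 9 genes by mean FPKM was Ms4a6d, Ms4a6c, Ms4a6b, Ms4a4c, Ms4a7, Ms4a4b, Ms4a1, Ms4a2 and Ms4a4d, and it was the same by TMM-normalised CPM. Of the 8 neighbouring pairs in this order, 4 had ranges over the libraries that did not overlap. These were Ms4a6d above Ms4a6c, Ms4a6b above Ms4a4c, Ms4a7 above Ms4a4b and Ms4a4b above Ms4a1. The other 4 pairs (Ms4a6c and Ms4a6b, Ms4a4c and Ms4a7, Ms4a1 and Ms4a2, Ms4a2 and Ms4a4d) had overlapping ranges. Within libraries, where both genes of a pair were measured together, the first was higher in 3 of 3 libraries in 6 of the 8 pairs. These include 2 with overlapping ranges, Ms4a6c over Ms4a6b (a difference of 0.13 ± 0.07 on the scale log2(FPKM + 0.1)) and Ms4a1 over Ms4a2 (0.67 ± 0.22, SD, n = 3). The differences within libraries were tested by exact two-sided permutation of their signs, which gave at best p = 0.25, the smallest that 3 libraries allow (0.333 after Benjamini-Hochberg adjustment over the 8 pairs), so no pair could pass a threshold of 0.05. Without replicate 2, 7 of the 8 pairs were separated.

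Replicate 2 thus touched much of what could be said of this family, and its values are set against the other libraries. In FPKM 7 of the 9 genes were highest there, beside 35.7% of all genes with a value. The exceptions were Ms4a4c and Ms4a4d. In CPM the value in replicate 2 was 1.20 times the mean of the other libraries for Ms4a6d, 1.14 times for Ms4a6c and 1.23 times for Ms4a6b. It was 1.53 times for Ms4a7, 1.89 times for Ms4a4b and 0.98 times for Ms4a4c. With few counts, it was 2.61 times for Ms4a1 and 2.7 times for Ms4a2, and Ms4a4d had none in replicate 2. Among the 1331 tested genes of the same range of effective lengths (977 to 1443 nt), the median ratio was 1.06, with 5th and 95th percentiles of 0.75 and 1.45, and 50.6% were highest in replicate 2. Ms4a7 and Ms4a4b therefore lay above that 95th percentile and the Ms4a6 genes below it. These genes were matched by length and not by abundance, and Ms4a4b rests on 81 counts, where counting error alone widens the ratio. Over the 11 border-associated macrophage genes the ratio ran from 0.94 (Stab1) to 1.66 (Folr2, named after its value was seen), with a median of 1.09. Their effective lengths ran from 308 to 7715 nt, beyond that range on both sides. Over all 13246 tested genes the median ratio was 0.997, with 5th and 95th percentiles of 0.73 and 1.37.

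**Figure D5:**
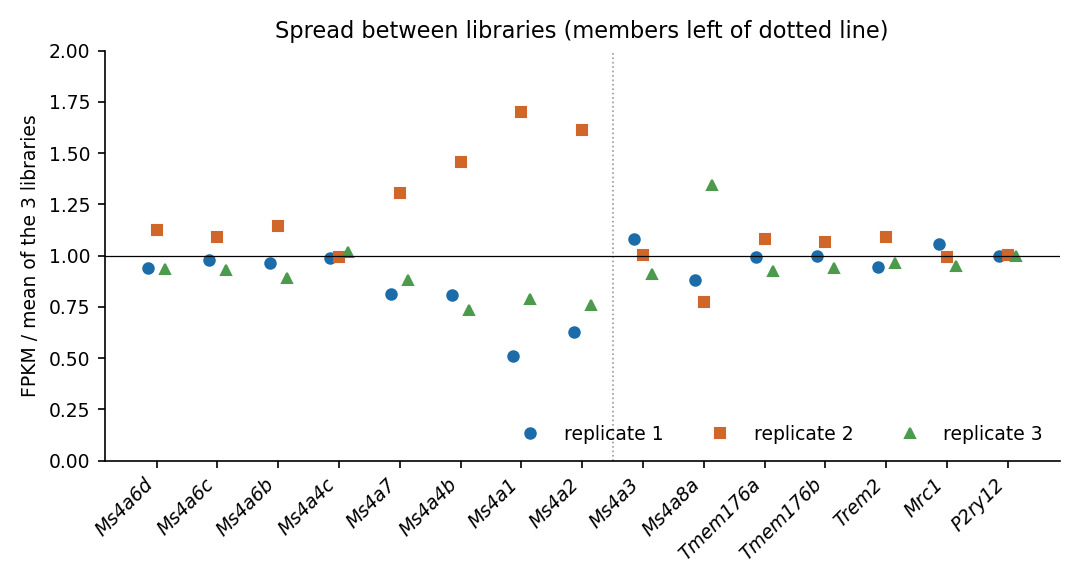
FPKM in each library divided by the mean of the 3 libraries, for 8 Ms4a genes (left of the dotted line, Ms4a4d omitted) and for relatives and marker genes (right), with symbols for replicates 1 to 3. Replicate 2 is highest for each Ms4a gene shown on the left except Ms4a4c, and the separation widens towards the genes with few counts.

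A chi-square test of homogeneity, fitted over 13246 genes with Benjamini-Hochberg adjustment, asked whether the counts of a gene differed between the libraries by more than counting error. It compares libraries and not conditions. Of the 6 Ms4a genes with enough counts to be tested, 5 passed at an adjusted p of 0.05, beside 41.4% of all genes tested. These were Ms4a6d (adjusted p = 3.23e-10), Ms4a6b (5.97e-10), Ms4a6c (2.09e-06), Ms4a7 (0.000477) and Ms4a4b (0.0369), and Ms4a4c did not pass (0.962). Without replicate 2, Ms4a6c was the only one of the 6 to pass (adjusted p = 0.00315), beside 18.6% of all genes tested. Without replicate 3, Ms4a6d, Ms4a6b and Ms4a7 passed, beside 23.5%. The test passes abundant genes on small differences, so the biological coefficient of variation, the replicate spread left after counting error as estimated by edgeR, was read beside it. It was 0.062 for Ms4a6d, 0.064 for Ms4a6c, 0.068 for Ms4a6b, 0.110 for Ms4a4c, 0.151 for Ms4a7 and 0.238 for Ms4a4b, with a median of 0.087 over all genes tested. The 3 Ms4a6 genes had values below that median. That of Ms4a4b, from 81 counts, was above 97.1% of genes, but other genes with few counts also ranked high. Ms4a8a (65 counts) and Ms4a3 (119 counts) were above 94.8% and 87.9% of genes, though neither passed the chi-square test (adjusted p = 0.222 and 0.791). The side of the Ms4a6 genes turned with the gene-wise estimate of DESeq2, which gave 0.107 for Ms4a6d, 0.0986 for Ms4a6c and 0.128 for Ms4a6b, all above its median of 0.0587 over all genes. For Ms4a4c the edgeR estimate is drawn towards genes of like abundance, and the chi-square test detected no spread beyond counting in its 3 libraries.

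The deleted microRNA was examined for letters it could pair with. The seed of miR-137-3p (bases 2 to 8, in capitals; chr3:118433901-118433923, plus strand) pairs with the site AGCAATA.

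miR-137-3p: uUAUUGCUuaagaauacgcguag

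In the 3′ UTR of the longest coding transcript, Ms4a6b and Ms4a7 held 1 such site each and the other 7 measured genes none, beside 8.71% of 19902 genes with at least 1. These 3′ UTRs were 1676 bases long in Ms4a6b and 481 in Ms4a7, beside a median of 782 over those genes. The transcript searched had 2680 nt for Ms4a6b and 1576 nt for Ms4a7. The effective lengths in the deposited tables were 1407 and 1055 nt, so the counted transcript of either gene may lack the site. In the promoters it was found on either strand only in Ms4a4d, beside 1.84% of all promoters. These matches name letters and not targets.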

How the data were processed

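RNA from mouse microglia was sequenced in 3 libraries of 1 group. The authors deposited estimated counts and FPKM per gene, with 1 column for each replicate. The tools listed in the submitters' processing notes are DESeq2, RSEM and STAR 2.7.9a, and the builds are GRCm38 and mm10, without settings or annotation. The deposited counts were not scaled between libraries, and the deposited FPKM divide by library size and effective gene length. Members and gene lists were chosen with earlier results of these data known. The genes named were all members and other Ms4a genes, fixed genes such as Spi1 and Trem2, and the highest and lowest gene of each list by mean FPKM. P2ry12, Ccr2, Folr2, Hdc, Gata2, Mcpt8, Kit, Cpa3, Mcpt4, Tpsb2, Cma1, Cd79b, Ebf1 and Cd22 were added after their values were seen. Some genes that this rule names are not reported here.

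FPKM were analysed as log2(FPKM + 1). Counts were rounded, filtered with edgeR 4.0.16 (R 4.3.3) defaults and TMM-normalised, and dispersions were fitted with an intercept alone. The chi-square test was tested on simulated data. With 9 members measured, 8 neighbouring pairs were compared and not the 9 planned. Alternatives were other thresholds, pseudocounts, units, scalings (DESeq2 1.42.0 size factors) and filters, and leaving out each replicate. Coding regions were aligned with Biopython 1.88 (match 1, mismatch -1, gap opening -4, extension -0.5). Sequences came from GENCODE M21 and RefSeq (GRCm38.p6). Coordinates are 1-based.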

Additional observations from a re-analysis of the deposited data

How the results depend on the processing

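Of the 9 genes, 5 or 6 were detected under the other thresholds, under CPM and without any 1 replicate, beside 43.6 to 52.0% of all genes. The median level of the family, 3.07, moved to 2.91 with a pseudocount of 0.1, to 3.23 in TMM-normalised CPM, to 3.87 in TPM (FPKM rescaled to the same sum in each library) and to 4.68 over the 6 genes with a mean of at least 1 FPKM, and lay between 2.98 and 3.14 with 1 replicate left out. The separated neighbouring pairs numbered 5 of 8 in CPM and 4 to 7 with 1 replicate left out, with the 7 reached without replicate 2. The genes with spread beyond counting error numbered 5 with DESeq2 size factors, with library totals and with whole-count genes alone. The share of all genes tested was 41.0 to 41.5% in these settings. Without a filter on low counts they numbered 7 of 9, with Ms4a1 and Ms4a2 added, beside 37.8% of all genes tested. With 1 replicate left out they numbered 1 to 5, beside 18.6 to 28.2% of all genes tested. Both the number and the share were lowest without replicate 2. The median coefficient of variation of the 6 tested genes, 0.0892 with edgeR, was 0.117 with the gene-wise estimate of DESeq2, which does not draw values towards other genes (0.0587 over all genes), and the 3 Ms4a6 genes lay below the median of all genes with edgeR and above it with DESeq2. The levels of single genes on the log2 scale stayed within 1 SD in 27 of 27 values with a replicate left out, and in 4 of 9 with a pseudocount of 0.1. No paired analysis was possible because all 3 libraries belong to 1 group. Values of Ms4a1, Ms4a2 and Ms4a4d rest on 49, 34 and 4 counts in all, so their counting intervals are wide.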
